A study of Mus musculus with 73 samples.

Results

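Transcripts of 9 genes of the interleukin 1 axis were followed through 73 single cells of 1 regenerating mouse lung. The genes were Il1b, Il1a, Il18, the antagonist Il1rn, the decoy receptor Il1r2, the inflammasome components Nlrp3, Pycard and Casp1, and the cytokine gene Tnf, chosen by name from 23994 gene rows of the deposited FPKM table. The cells came from a B6 mouse, a 10 week adult of genotype Csf1r-GFP, whose left lung lobe had been removed 7 days earlier, and were taken from the right lobes. They had been sorted as CD45+, CSF1R-GFP+ and F4/80+, with Ly6G listed without a sign, so cells without the Csf1r reporter were not selected. All cells belonged to 1 group and no cell from an unoperated lung was analysed here, so no value below measures an effect of the operation.

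Interleukin 1 beta and interleukin 18 are made as inactive precursors without a signal peptide, and the inflammasome joins a sensor such as NLRP3 to the adaptor ASC and to caspase-1, which cuts both precursors. Interleukin 1 alpha acts on the same receptor as interleukin 1 beta and needs no such cut to bind it. In the lung, alveolar macrophages live in the air spaces for long periods, while classical monocytes enter from the blood. The question followed here was whether the Il1b and Il18 transcripts lie in the same cells or in different ones.

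Clustering without the 9 genes and without 78 other genes of the pathway divided the 73 cells into 3 clusters. A cluster of 12 cells was led by alveolar macrophage markers such as Ear2, Car4 and Chil3 and is called alveolar-macrophage-like, or AM-like, and one of 49 cells, led by Plac8, Ly6c2, S100a4 and Hp, is called classical-monocyte-like, or monocyte-like. The remaining 12 cells are called by their leading genes, class II and C1q, because 9 of the 12 held C1qa while 3 of the 12 held at least 7 of 10 classical monocyte markers. The monocyte-like cluster was not uniform: 40 of its 49 cells held at least 7 classical monocyte markers, 4 held at least 6 of 12 alveolar macrophage markers and 5 held at least 8 of 10 non-classical monocyte markers. Ly6c2 and Ccr2 were detected in 0 of the 12 AM-like cells. Of the genes that underlie the sort, Csf1r and Ptprc were detected in 65 and 69 of 73 cells. Emr1, which encodes the remaining positive marker of the sort, was detected in 41 of 73 cells. These were 7 of 12 AM-like cells, 24 of 49 monocyte-like cells and 10 of 12 cells of the class II and C1q cluster. Median depth was 1057392.5 mouse fragments in AM-like cells, 1364834 in monocyte-like cells and 1718205 in the class II and C1q cluster, with a range over all cells of 347004 to 3485957. The median number of genes at FPKM of 1 or more was 2739.5, 2163 and 2467.5 in the same order. Its Spearman correlation with the 9 genes over the 73 cells ran from -0.06 for Il1b to 0.43 for Il18, with 0.39 for Tnf. Those values pool the clusters. Within the 49 monocyte-like cells the correlation was 0.27 for Il1b, 0.35 for Il18 and 0.39 for Tnf. The part of the number of genes per cell in the detection of the 9 genes was not tested. Since every cell came from 1 mouse, cells are not replicates, no test was made, and intervals cover counting error only.

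The promoters of Il1b and Il18 are shown because these genes had opposite patterns, and those of Il1a and Tnf because both cytokine genes had higher means in AM-like cells. Each sequence is the 250 bases before the transcription start in the gene's direction, from RefSeq for GRCm38.p6, the assembly that mm10 represents. Capitals mark TATAAA with its first base 20 to 40 bases before the start.
Il1b, chr2:129371140-129371389, minus strand: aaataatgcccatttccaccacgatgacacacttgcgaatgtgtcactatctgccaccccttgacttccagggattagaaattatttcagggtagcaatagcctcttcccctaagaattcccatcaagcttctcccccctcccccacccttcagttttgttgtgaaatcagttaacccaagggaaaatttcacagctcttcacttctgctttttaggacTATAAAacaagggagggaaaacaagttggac
Il18, chr9:50554450-50554699, plus strand: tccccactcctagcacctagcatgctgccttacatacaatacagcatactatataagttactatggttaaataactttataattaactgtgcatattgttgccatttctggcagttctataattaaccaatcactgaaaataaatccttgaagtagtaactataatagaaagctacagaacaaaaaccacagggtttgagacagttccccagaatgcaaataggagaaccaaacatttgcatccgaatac
Il1a, chr2:129309973-129310222, minus strand: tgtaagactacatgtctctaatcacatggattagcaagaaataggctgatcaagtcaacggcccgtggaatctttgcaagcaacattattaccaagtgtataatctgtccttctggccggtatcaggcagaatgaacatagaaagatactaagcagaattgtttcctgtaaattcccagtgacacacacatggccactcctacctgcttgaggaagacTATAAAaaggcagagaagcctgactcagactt
Tnf, chr17:35202008-35202257, minus strand: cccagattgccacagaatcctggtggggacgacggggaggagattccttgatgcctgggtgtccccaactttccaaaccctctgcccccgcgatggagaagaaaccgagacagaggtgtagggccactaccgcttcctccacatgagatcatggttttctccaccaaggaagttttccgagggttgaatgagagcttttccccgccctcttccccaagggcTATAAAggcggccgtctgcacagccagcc

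The TATAAA string, searched for in the gene's direction after the sequences had been seen, began 31 bases before the start of Il1b, 32 before that of Il1a and 29 before that of Tnf. It was present at that distance in 1.99% of 32851 RefSeq promoters and was not found there in Il18. By the means given below, Il1b was lower and Il1a and Tnf were higher in AM-like cells. A link of the string to these levels was not tested. A search of both strands covered 3 G, any 5 bases and 2 C for NF-kB, TGANTCA for AP-1, GAGGAA for PU.1 and TTGCNNAA for C/EBP, which occur in 45.8%, 6.75%, 23.3% and 9.56% of all promoters of this length. The windows of Il1b and Il18 held none of these strings, that of Il1a held 1 AP-1 and 1 PU.1 string, and that of Tnf held 1 NF-kB and 1 PU.1 string. A match describes letters and not a bound site, and NF-kB and PU.1 sites outside these 250 bases were not searched.

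Il1b, the gene of interleukin 1 beta, was sparse and mostly low in AM-like cells and abundant in nearly every monocyte-like cell. It is a protein-coding gene on chromosome 2 from 129364570 to 129371139 (mm10, minus strand). Among the 12 AM-like cells the lowest value was 0, the median 0.995 and the highest 1107 FPKM, in cell 19. Only cells 19 and 6 lay above 100 FPKM in that cluster, cell 6 at 1049.8, and the 4 other cells at FPKM of 1 or more held 97.7, 66.8, 12.5 and 1.36. Among the 49 monocyte-like cells the lowest value was 0, the median 1147 and the highest 5372 FPKM, in cell 63, with the middle of the distribution between 442 and 2449. The ranges overlapped, but 2 of 12 AM-like cells reached 1000 FPKM, against 25 of 49 monocyte-like cells.

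Il1b was thus detected, here meaning FPKM of 1 or more, in 6 of 12 AM-like cells (50%, 95% interval 21.1 to 78.9) and in 45 of 49 monocyte-like cells (91.8%, 80.4 to 97.7). The means were 195 ± 414 FPKM (SD over 12 cells) in AM-like cells and 1559 ± 1464 FPKM (SD over 49 cells) in monocyte-like cells. By its mean Il1b ranked 381 among all genes in the AM-like cells and 39 in the monocyte-like cells. The log2 fold of the mean FPKM + 1, AM-like over monocyte-like, was -3.00. Leaving out each cell in turn moved it between -3.79, without cell 19, and -2.87, without cell 17, both AM-like.

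The 4 monocyte-like cells in which Il1b was below 1 FPKM were cells 2, 26, 39 and 45. Cells 26, 39 and 45 held 10, 9 and 10 of the 10 classical monocyte markers; they had the markers of the cluster without the Il1b transcript. Cell 2 held 1 classical monocyte marker and 5 of 8 endothelial markers, with a summed endothelial level of 3696 FPKM. In the class II and C1q cluster Il1b was detected in 11 of 12 cells (91.7%, 61.5 to 99.8), with a median of 767 and a highest value of 5192 FPKM, in cell 11. Cell 11 held 7 of 10 interstitial macrophage markers and 0 classical monocyte markers, so this level lay in a cell without the monocyte markers. The exception was cell 15, where Il1b and all members except Casp1, at 8.27 FPKM, were listed at 0. Among the 5 monocyte-like cells with at least 8 non-classical monocyte markers, Il1b had 13.3, 177, 349, 928 and 1704 FPKM, so it was detected in each. The cell at 928 FPKM, cell 38, also held 6 of 8 endothelial markers.

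Il18 had the opposite pattern. It encodes interleukin 18, a cytokine best known for driving interferon gamma production by lymphocytes, and lies on chromosome 9 from 50554827 to 50581840 (plus strand, protein-coding); the start used by RefSeq lies upstream of this one. In the 12 AM-like cells the lowest value was 1.18, in cell 17, the median 245 and the highest 1056 FPKM, in cell 12. In the 49 monocyte-like cells the lowest value and the median were 0 and the highest was 630 FPKM, in cell 46. No AM-like cell was listed at 0, whereas 36 of 49 monocyte-like cells were.

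Detection of Il18 was 12 of 12 in AM-like cells (100%, 95% interval 73.5 to 100) and 13 of 49 in monocyte-like cells (26.5%, 14.9 to 41.1). The means were 399 ± 404 FPKM (SD over 12 cells) in AM-like cells and 55.95 ± 152 FPKM (SD over 49 cells) in monocyte-like cells. The log2 fold was 2.81, with 2.58 and 3.15 as the lowest and highest values when each cell was left out in turn. At FPKM of 10 or more, the counts were 11 of 12 AM-like and 10 of 49 monocyte-like cells. Cell 17, with 1.18 FPKM, still held 10 of 12 alveolar macrophage markers at 10 FPKM or more.

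Within the monocyte-like cluster most cells lacked Il18, and a few held it at levels found in AM-like cells. Cells 46, 24, 39, 73, 13 and 1 held 335 to 630 FPKM, and the other 7 cells with the transcript held 2.70 to 56.6. Cells 13 and 73, at 338 and 339 FPKM, were among the 4 cells with at least 6 alveolar macrophage markers. The other cells of that kind, 64 and 75, held 2.70 and 10.03. All 4 also held Il1b, at 748 FPKM in cell 13, 581 in cell 73, 1147 in cell 64 and 1353 in cell 75. Without these 4 cells the log2 fold of Il18 was 3.10, so the gap was as large in their absence. Cell 39 held 0 alveolar macrophage markers and 401 FPKM of Il18, and cell 46 held 1 of these markers and 10 of 10 classical monocyte markers. In the class II and C1q cluster Il18 was detected in 4 of 12 cells (33.3%, 9.92 to 65.1), and cell 32, at 883 FPKM, carried 89.9% of the summed level.

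**Figure D1:**
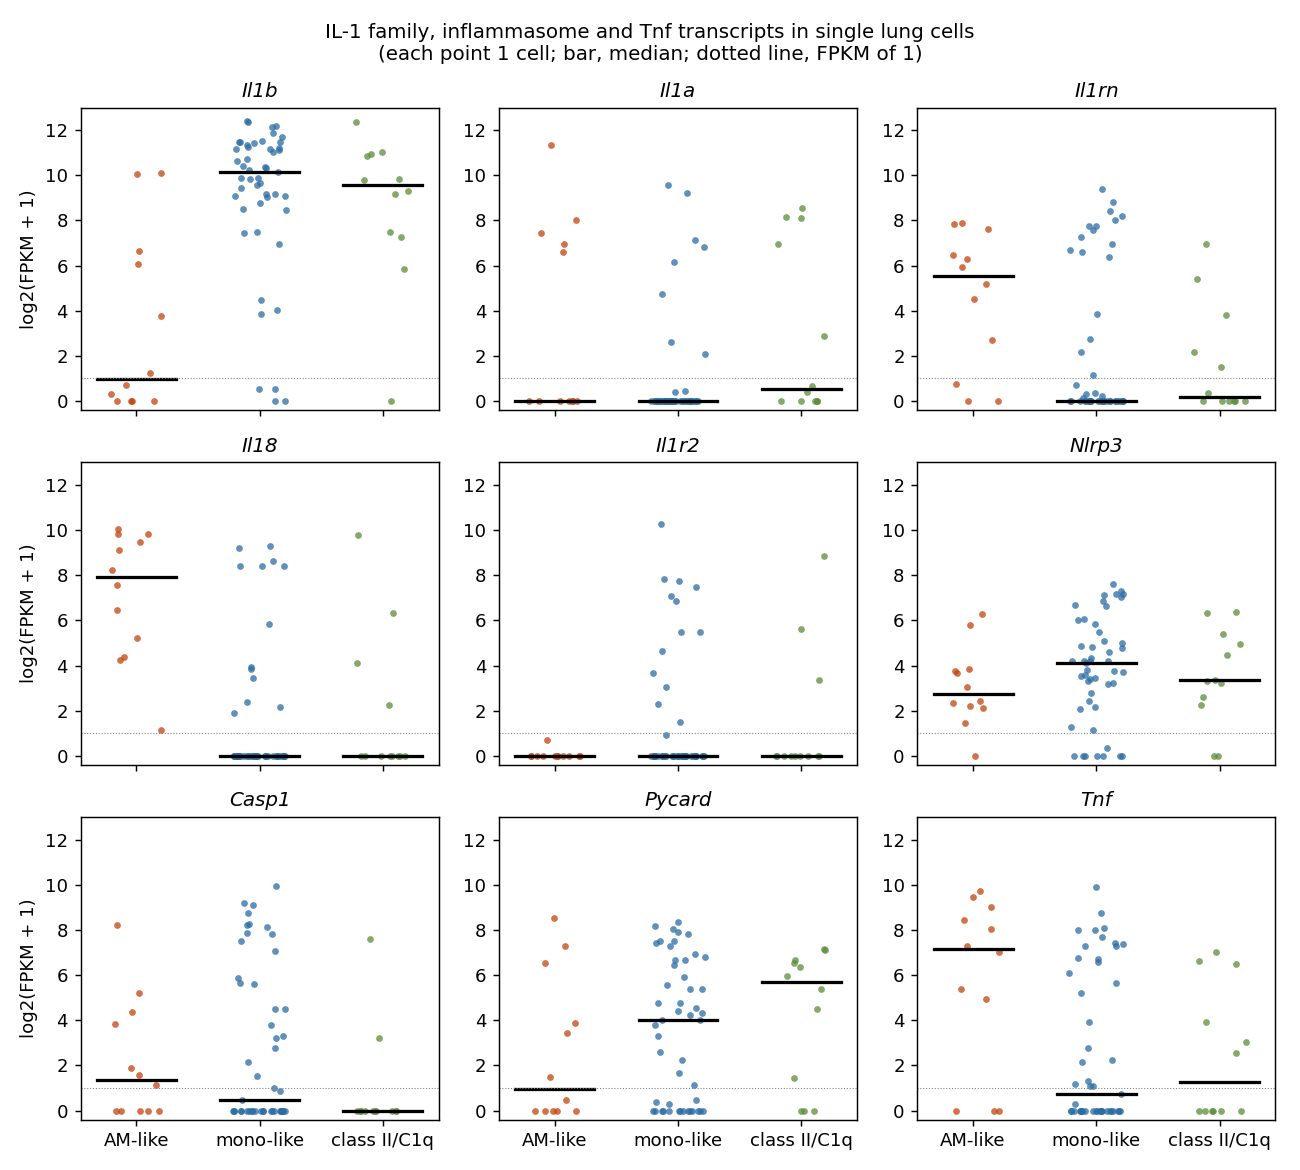
Levels of the 9 genes in each of 73 cells, as log2(FPKM + 1), with AM-like cells (12) on the left, monocyte-like cells (49) in the middle and the class II and C1q cluster (12) on the right. Points are cells, bars are medians and the dotted line marks FPKM of 1; Il18 is above the line in all 12 AM-like cells, and Il1b in 45 of 49 monocyte-like cells.

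Set side by side within each cell, a comparison in which the scaling of each cell cancels, Il18 exceeded Il1b in 9 of the 12 AM-like cells. The exceptions were cells 6, 19 and 91. Of the 46 monocyte-like cells with either transcript, Il18 exceeded Il1b in 1, cell 39, and it did so in 0 of 11 such cells of the class II and C1q cluster. Il18 made up 67.2% of the summed FPKM of both genes in AM-like cells, 3.46% in monocyte-like cells and 6.34% in the class II and C1q cluster. FPKM divides by transcript length, so these are levels per length.

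Both transcripts were detected together in 6 of 12 AM-like cells and the other 6 held Il18 alone. In monocyte-like cells 12 of 49 held both, 1 held Il18 alone, 33 held Il1b alone and 3 held neither. The 2 genes were therefore not exclusive: cells 6 and 19, AM-like, held 701 and 898 FPKM of Il18 beside the highest Il1b values of their cluster. Cell 19 held 11 of 12 alveolar macrophage markers and 1 classical monocyte marker, and cell 6 held 9 and 0 of these markers.

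**Figure D2:**
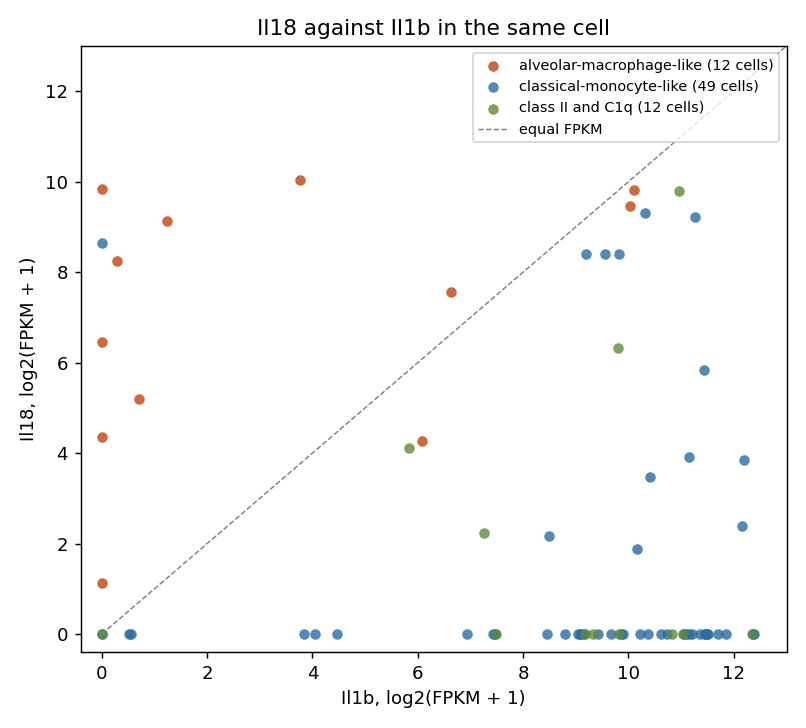
Il18 against Il1b in the same cell, both as log2(FPKM + 1), coloured by cluster, with a dashed line of equal FPKM. Of the 12 AM-like cells 9 lie above the line, and 1 monocyte-like cell does.

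Il1a and Tnf, genes of cytokines that caspase-1 does not cut, were found in part of the AM-like cells at high levels. Il1a lies beside Il1b on chromosome 2, from 129299610 to 129309972 (minus strand). It was detected in 5 of 12 AM-like cells (41.7%, 15.2 to 72.3), at 2625, 259, 172, 124 and 96.4 FPKM, and in 8 of 49 monocyte-like cells (16.3%, 7.32 to 29.7), of which the highest, cell 83, held 760 FPKM. The medians were 0 in both clusters. Cell 6 carried 80.1% of the summed Il1a level of the AM-like cells, and 1 cell decided the fold. The log2 fold was 2.93 with all cells, 0.74 without cell 6 and 3.71 without cell 83. In the class II and C1q cluster Il1a was detected in 5 of 12 cells, with a highest value of 369 FPKM.

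Tnf, the gene of tumor necrosis factor on chromosome 17 from 35199381 to 35202007 (minus strand), was spread over more cells. In AM-like cells its lowest value was 0, its median 143 and its highest 855 FPKM, in cell 6. In monocyte-like cells the lowest value was 0, the median 0.645 and the highest 967 FPKM, in cell 44, so the ranges overlapped over nearly their full width. It was detected in 9 of 12 AM-like cells (75%, 42.8 to 94.5), all 9 at 10 FPKM or more. The same count was 24 of 49 for monocyte-like cells (48.98%, 34.4 to 63.7), of which 17 reached 10 FPKM. Means were 254 ± 296 FPKM (SD over 12 cells) in AM-like cells and 71.97 ± 162 FPKM (SD over 49 cells) in monocyte-like cells. The log2 fold of 1.81 stayed under 4-fold, but was 2.23, past it, without cell 44.

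Each of the 5 AM-like cells with Il1a also held Tnf, whereas 6 of the 8 monocyte-like cells with Il1a did. Tnf exceeded Il1b in 7 of the 10 AM-like cells with either transcript and in 2 of 46 such monocyte-like cells. Il1a exceeded Il1b in 4 of 8 AM-like cells and in 0 of 45 monocyte-like cells with either transcript. Of the summed Tnf and Il1b level, Tnf made up 56.6% in AM-like cells and 4.41% in monocyte-like cells.

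The 2 natural inhibitors differed from each other. Il1rn, whose product occupies the interleukin 1 receptor without signalling, lies on chromosome 2 from 24336853 to 24351494 (plus strand). It was detected in 9 of 12 AM-like cells (75%, 42.8 to 94.5), with a lowest value of 0, a median of 47.3 and a highest value of 232 FPKM. In monocyte-like cells it was detected in 17 of 49 (34.7%, 21.7 to 49.6), with a median of 0 and a highest value of 670 FPKM. Its means nevertheless were close, at 78.8 ± 90.3 FPKM in AM-like cells (SD over 12 cells) and 65.5 ± 137 FPKM in monocyte-like cells (SD over 49 cells), for a log2 fold of 0.26. Il1rn was present in more AM-like cells at moderate levels and in fewer monocyte-like cells at higher ones, with a median among cells holding it of 77.3 FPKM in AM-like and 154 FPKM in monocyte-like cells. Il1rn exceeded Il1b in 6 of 10 AM-like cells and in 2 of 46 monocyte-like cells with either transcript.

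Il1r2, the decoy receptor that binds interleukin 1 without signalling, was not detected in AM-like cells. Its gene lies on chromosome 1 from 40074079 to 40125231 (plus strand). A single fragment, in cell 21 at 0.625 FPKM, was assigned to it among the 12 cells, and at FPKM of 1 the count was 0 of 12 cells, where 3 cells would make 25% and the exact upper bound is 26.5%. It was detected in 13 of 49 monocyte-like cells (26.5%, 14.9 to 41.1) and in 3 of 12 cells of the class II and C1q cluster. The highest monocyte-like cell, cell 69 at 1245 FPKM, carried 55.5% of that cluster's sum, and the other 12 cells held 228 or less. The AM-like cells thus held 1 Il1r2 fragment among 15922526 mouse fragments and the monocyte-like cells 10349 among 69875186, a ratio of rates of 0.000424 (95% counting interval 1.07e-05 to 0.00236). That interval treats each amplified fragment as an independent draw, so it covers neither amplification nor the spread between cells, and it does not bound the gap. The AM-like mean was 0.0521 FPKM, so the log2 fold of the means depends on the pseudocount: it was -5.48 with 1 and -8.24 with 0.1 added, and -4.38 without cell 69. The difference of mean log2(FPKM + 1) was -1.46, and 35 of 49 monocyte-like cells were also at 0.

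Il1r2 and Il1b are also transcribed by neutrophils, and the sign of Ly6G in the sort was not given, so the neutrophil marker list is set beside both genes. Of the 11 listed neutrophil genes 10 were matched, and S100a9, Retnlg, Ngp, Camp and Ltf were listed at FPKM under 1 in all 49 monocyte-like cells. The summed neutrophil level had a median of 7.70 FPKM in AM-like cells (range 1.70 to 154), 85.4 in monocyte-like cells (0.839 to 922) and 6.98 in the class II and C1q cluster (0 to 5008). The 2 genes of the list detected most often were Csf3r and Cxcr2. Csf3r was detected in 1 of 12 AM-like and 31 of 49 monocyte-like cells, and Cxcr2 in 11 of 12 AM-like and 40 of 49 monocyte-like cells. The Cxcr2 medians, 1.94 FPKM in AM-like and 2.18 FPKM in monocyte-like cells, were close to the cut of 1 FPKM. Cell 69 held 3 neutrophil markers, summing to 803 FPKM, beside 10 of 10 classical monocyte markers. The part of these transcripts in the Il1r2 and Il1b values was not tested.

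**Figure D3:**
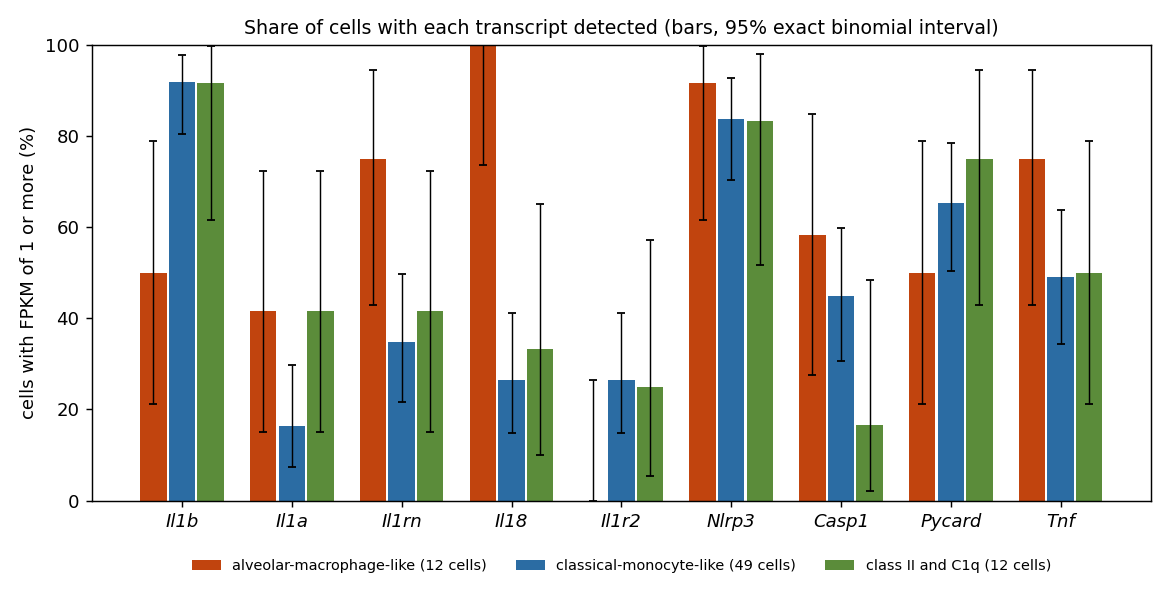
Share of cells with FPKM of 1 or more for each of the 9 genes, with exact 95% binomial intervals, for AM-like cells (12), monocyte-like cells (49) and the class II and C1q cluster (12). The intervals of the AM-like and monocyte-like clusters are apart for Il1b and for Il18, and overlap for the other 7 genes.

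The inflammasome transcripts were detected in part of the cells of each cluster. Nlrp3, the sensor, on chromosome 11 from 59541568 to 59566956 (plus strand), was low and widespread. Its median was 5.88 FPKM in AM-like cells (0 to 75.8) and 16.2 FPKM in monocyte-like cells (0 to 194). It was detected in 11 of 12 AM-like cells (91.7%, 61.5 to 99.8) and 41 of 49 monocyte-like cells (83.7%, 70.3 to 92.7). Values of 100 FPKM or more occurred in 0 of 12 AM-like and 8 of 49 monocyte-like cells. The log2 fold was -1.19.

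Pycard encodes ASC, the adaptor, and lies on chromosome 7 from 127989708 to 127993867 (minus strand). It was detected in 6 of 12 AM-like cells (50%, 21.1 to 78.9) and in 32 of 49 monocyte-like cells (65.3%, 50.4 to 78.3). The medians were 1.07 FPKM in AM-like cells and 15.4 FPKM in monocyte-like cells. The means were closer, at 53.8 ± 112 FPKM in AM-like cells (SD over 12 cells) and 60.1 ± 89.1 FPKM in monocyte-like cells (SD over 49 cells). Cell 55, at 373 FPKM, held 57.8% of the AM-like sum. The log2 fold was -0.16, and -1.25 without cell 55. In the class II and C1q cluster 9 of 12 cells held Pycard, with a median of 51.5 FPKM.

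Casp1, the protease of the complex, on chromosome 9 from 5298517 to 5307265 (plus strand), was over all 73 cells the least often detected of the 3. It was found in 7 of 12 AM-like cells (58.3%, 27.7 to 84.8), with a median of 1.60 and a highest value of 302 FPKM, in cell 17. In monocyte-like cells it was found in 22 of 49 (44.9%, 30.7 to 59.8), with a median of 0.386 and a highest value of 982 FPKM, in cell 44. Cell 17 held 80.1% of the AM-like sum, and the log2 fold of -1.50 was -3.55, past 4-fold, without it. In the class II and C1q cluster Casp1 was found in 2 of 12 cells (16.7%, 2.09 to 48.4).

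All 3 inflammasome transcripts were detected together in 5 of 12 AM-like cells (41.7%, 15.2 to 72.3), 14 of 49 monocyte-like cells (28.6%, 16.6 to 43.3) and 1 of 12 cells of the class II and C1q cluster (8.33%, 0.211 to 38.5). Il1b was present in 4 of those 5 AM-like cells and in all 14 of the monocyte-like cells. Il18 was present in all 5 AM-like and in 5 of the 14 monocyte-like cells. At 10 FPKM or more the 3 inflammasome transcripts were together in 1 of 12 AM-like and 5 of 49 monocyte-like cells, so most such cells held at least 1 of them at a low level. A transcript below detection in a single cell may have been lost in amplification, so these counts describe captured transcripts.

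Of the 9 genes, Il18 and Il1a were past 4-fold higher and Il1b and Il1r2 past 4-fold lower in AM-like over monocyte-like cells, and 5 were within 4-fold. Among the 6151 genes detected in at least 8 cells, 8.34% were past 4-fold higher and 18.7% past 4-fold lower, 27.1% in all. The count of 4 of 9 genes is read against this background and is not set apart from it at so small a number. It includes Il1r2, which was detected in 0 AM-like cells, passed the filter through the other clusters alone and could not be called higher. The median log2 fold was -0.16 over the 9 genes and -0.30 over all 6151. The level of 10 housekeeping genes, as mean log2(FPKM + 1), had a median of 6.94 in AM-like cells and 6.06 in monocyte-like cells. The part of this difference in the levels of the 9 genes was not tested.

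Of 78 other genes of the pathway matched in the table, 50 were detected in at least 8 cells, of which 1 was past 4-fold higher, 13 past 4-fold lower and 36 within 4-fold, with a median log2 fold of -1.11. A gene could pass this filter through cells of the other clusters alone. Mefv, Prtn3 and Ccl4, among the 13, were detected in 0 AM-like cells, which leaves 10 lower and 1 higher among the genes detected in at least 1 AM-like cell, a recount made after the values were seen. Traf6, Mefv and Prtn3 were listed at 0 in all 12 AM-like cells, and the median of the other 47 genes was -1.0. Over all genes compared, 8.34% were higher, 18.7% lower and the median was -0.30, with genes absent from AM-like cells kept in. Those values stand beside the 1 higher, the 13 lower and the median of -1.11. The recount and the median of -1.0 have no background under the same rule.

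Serpinb1a, which encodes an inhibitor of neutrophil-type serine proteases that also restrains inflammatory caspases, was the gene past 4-fold higher. It had a mean of 129 ± 225 FPKM in AM-like cells, where 9 of 12 held it, and 12.6 ± 50.2 FPKM in monocyte-like cells, where 9 of 49 did, a log2 fold of 3.25. It was 1 of 6 genes of the restraint list that could be compared. The others included Nfkbia and Zfp36, which damp NF-kB and cytokine mRNA and were detected in 70 and 72 of 73 cells. Their log2 folds were -0.65 and -0.51.

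Of the genes that carry the signal from the interleukin 1 receptor into the cell, some had lower means in AM-like cells. Of 10 such genes compared, Myd88, Irak4, Irak2 and Map3k7 were past 4-fold lower in AM-like cells and 0 past 4-fold higher. Over all 6151 genes the shares were 18.7% lower and 8.34% higher, and a count among 10 genes is not set apart from them. Myd88, the adaptor shared by interleukin 1 and Toll-like receptors, was detected in 5 of 12 AM-like cells and 23 of 49 monocyte-like cells, with means of 13.5 ± 24.9 FPKM in AM-like and 118 ± 284 FPKM in monocyte-like cells and a log2 fold of -3.04; both SDs exceeded the means. The kinase genes Irak4, Irak2 and Map3k7, the last encoding TAK1, had log2 folds of -3.13, -2.28 and -2.24. These folds are of means, and detection did not follow them for each gene. Irak4 was detected in 6 of 12 AM-like and 17 of 49 monocyte-like cells, with medians of 1.27 FPKM in AM-like and 0 FPKM in monocyte-like cells. Irak2 was detected in 2 of 12 AM-like and 23 of 49 monocyte-like cells, and Map3k7 in 2 of 12 AM-like and 6 of 49 monocyte-like cells. Ikbkb, a kinase of the NF-kB pathway, had a log2 fold of -2.06. Ripk1, which acts below the tumor necrosis factor receptor, had -2.40, with detection in 4 of 12 AM-like and 10 of 49 monocyte-like cells.

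Among inflammasome sensors other than Nlrp3, 2 of the 6 compared were past 4-fold lower, Mefv and Aim2, beside 18.7% of all 6151 genes. Mefv, which encodes the inflammasome sensor pyrin, was listed at 0 in all 12 AM-like cells and detected in 24 of 49 monocyte-like cells, at a mean of 33.97 ± 71.4 FPKM. Aim2, a sensor of cytosolic DNA, was detected in 3 of 12 AM-like cells and 8 of 49 monocyte-like cells, with a log2 fold of -3.02. Brcc3, a deubiquitinase that acts on NLRP3, was detected in 1 of 12 AM-like and 8 of 49 monocyte-like cells, with a log2 fold of -2.24. Prtn3, the gene of proteinase 3, was listed at 0 in the 12 AM-like cells and detected in 9 of 49 monocyte-like cells.

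The products that interleukin 1 and tumor necrosis factor induce in many cells were not all lower. Of 7 compared, Ptgs2, Ccl4 and Icam1 were past 4-fold lower, beside 18.7% of all 6151 genes. Ptgs2, the inducible cyclooxygenase, was detected in 1 of 12 AM-like cells and 24 of 49 monocyte-like cells, with means of 0.226 ± 0.781 FPKM in AM-like and 52.4 ± 89.6 FPKM in monocyte-like cells. Ccl4, a chemokine gene, was detected in 0 of 12 AM-like cells, 16 of 49 monocyte-like cells and 9 of 12 cells of the class II and C1q cluster. Icam1, the adhesion molecule gene, had a log2 fold of -2.66. Cxcl2, a neutrophil-attracting chemokine gene detected in 68 of 73 cells, had means of 1239 ± 977 FPKM in AM-like cells and 1345 ± 1433 FPKM in monocyte-like cells, and its log2 fold was -0.12.

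**Figure D4:**
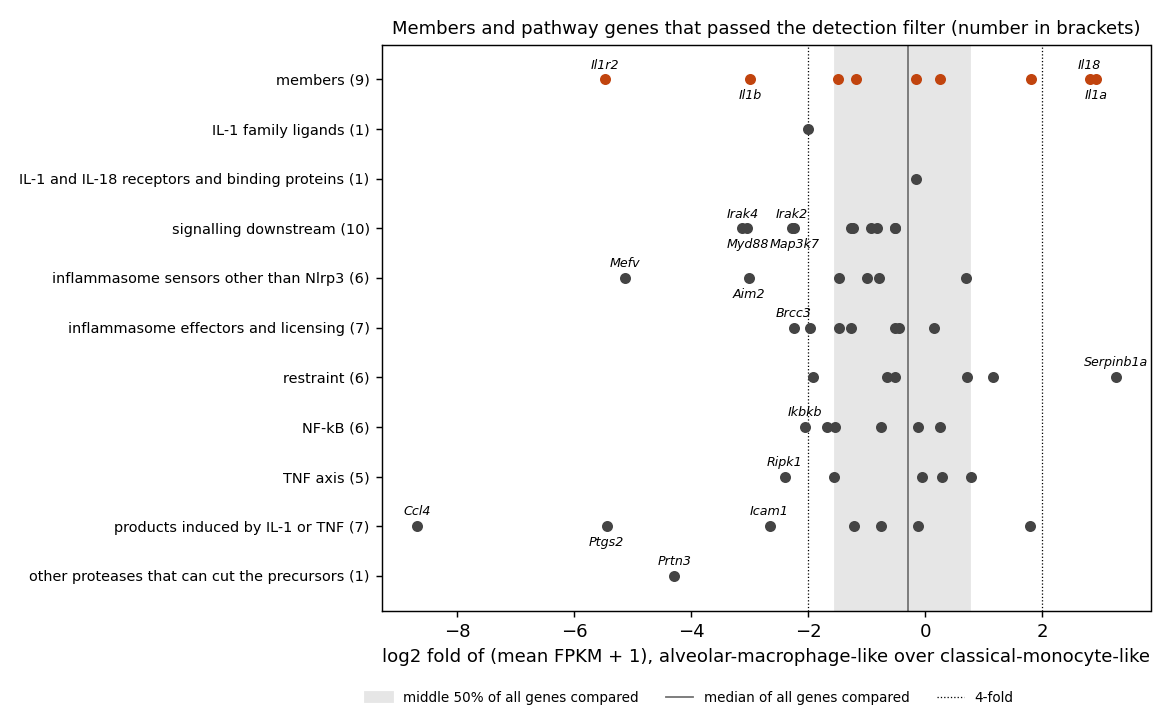
Log2 fold of the mean FPKM + 1, AM-like over monocyte-like, for the 9 genes (top row) and the 50 other pathway genes compared, each point 1 gene. The grey band is the middle of all 6151 genes compared, from -1.55 to 0.77, dotted lines mark 4-fold and genes past it are named; Serpinb1a is the pathway gene to the right of 4-fold, and 13 lie to the left.

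Besides Il1r2, transcripts of receptors for interleukin 1 and interleukin 18 were scarce in the sorted cells. Of 8 other receptor and binding protein genes of these cytokines, 1, Il1rap, was detected in at least 8 cells. The tumor necrosis factor receptor genes Tnfrsf1a and Tnfrsf1b, named after their values were seen, were detected in 44 and 45 of 73 cells. Il18r1, a chain of the interleukin 18 receptor, was detected in 0 of 73 cells, where 3 cells would make 4.11% and the exact upper bound is 4.93%. Both limit the share of cells with a captured transcript, not the share that express the gene. Other genes detected in 0 of 73 cells were the ligand genes Il33, Il1f5, Il1f6, Il1f8 and Il1f10, the sensors Nlrp6, Nlrp10 and Nlrp12, and Ltb, Lta, Csf2 and Csf3. The lymphoid marker list was below 1 FPKM for all 7 matched genes in every cluster.

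The genes whose levels ran most like Il1b over the 73 cells, among 2975 genes detected in at least 20 cells, were Srgn, S100a4, Nr4a1, Fyb and Nfkbiz, with Spearman correlations of 0.65, 0.53, 0.53, 0.52 and 0.50. Srgn, the gene of the granule proteoglycan serglycin, had a mean of 107 FPKM in AM-like cells and 1950 FPKM in monocyte-like cells, so it had the same direction as Il1b. For Il18 they were Lpl, 1100001G20Rik, Calr, Ear1 and Fth1, with Spearman correlations of 0.56, 0.55, 0.52, 0.52 and 0.51. Lpl, the lipoprotein lipase gene, had means of 334 FPKM in AM-like cells and 4.42 FPKM in monocyte-like cells. These are descriptions over cells of 1 mouse that fall into clusters, which both genes of each pair share, so no p is given.

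Across cells, between 0 and 8 of the 9 genes were detected, with medians of 5.5 in AM-like cells, 4 in monocyte-like cells and 5 in the class II and C1q cluster. Cell 2 held none. Short antisense or unclassified transcripts overlap Il1b by 25 exonic bases, Il1a by 222 and Pycard by 485 in the GENCODE annotation of GRCm38. Whether fragments were counted by strand was not stated, so those bases cannot be told apart.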

How the data were processed

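Per the labels' protocols, cells were isolated on a Fluidigm C1 chip, cDNA was made from polyadenylated RNA by SMARTer, and Nextera XT gave the libraries. The submitters' processing notes name CASAVA (version 1.8), TopHat2 (version 2.1.0), Cufflinks (version 2.2.1), Cuffnorm and the build mm10, while annotation and cell filters are not given in the sources used here. Deposited FPKM values had been normalised per cell by the authors. Their second deposited table is a signal in which fragment counts had been divided by 1 factor for each cell; of 99809 low values 99.602% lay within 0.1 of a whole multiple of the cell's smallest step, and fragments were estimated by dividing by that step. The 100 spike-in rows, 1 with signal, were kept apart from the gene rows, and the spike-in scaling below rests on that 1 row.

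Classes came from Ward clustering of log2(FPKM + 1), scaled per gene, on 10 principal components of the 1000 most variable genes detected in at least 8 cells, without the 9 genes and the other pathway genes, cut into 3 clusters (mean silhouette 0.245). Folds are the log2 ratio of mean FPKM + 1, called at 4-fold. Genes named beside the 9 are pathway genes past 4-fold or detected in at least 60 cells, and the 5 genes most correlated with Il1b and with Il18. Genes listed as undetected, Traf6, Il1rap, Tnfrsf1a and Tnfrsf1b fall outside that rule and were named after their values were seen, and marker genes are named where they describe the clusters and the sort. Intervals are Clopper-Pearson at 95%, and a count of 0 also carries the share that 3 cells would make. No doublet caller was run, since each capture site is meant to hold 1 cell. Some cells held markers of more than 1 kind. Cell 54 held 8 endothelial and 7 classical monocyte markers, and cell 38 held 6 endothelial and 9 non-classical monocyte markers. Of all cells, 3 held at least 6 alveolar macrophage and at least 7 classical monocyte markers, among them cell 13 with 9 and 9. Whether these sites held more than 1 cell was not tested. The genes, lists and tests were chosen with earlier results of these data known. Computation used Python 3.11.15 with numpy 2.4.6, pandas 2.3.3, scipy 1.17.1 and scikit-learn 1.9.0, and the clustering and fold steps were tested on simulated data. Gene positions came from GENCODE for GRCm38 and promoters from RefSeq. Alternatives covered detection thresholds, depth, pseudocount, scaling, the definition of classes and single cells left out. Spike-in scaling, cuts into 2 and 4 clusters, leaving out each cell and leaving out the 4 monocyte-like cells with alveolar macrophage markers were chosen after seeing the data.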

Additional observations from a re-analysis of the deposited data

How the results depend on the processing

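Il1b stayed lower and Il18 higher in AM-like cells, past 4-fold, under every alternative run. The cut into 4 clusters kept the same 12 AM-like and 49 monocyte-like cells, so its folds could not differ. Classes from k-means clustering and the cut into 2 clusters kept the same 12 AM-like cells. They changed the monocyte-like set only, to 45 and 61 cells. As a difference of mean log2(FPKM + 1), the values were -5.86 for Il1b and 5.58 for Il18, against log2 folds of -3.00 and 2.81. With each cell left out in turn Il1b ran from -3.79, without cell 19, to -2.87, and Il18 from 2.58 to 3.15. Under rescaling, spike-in scaling, thinning, a pseudocount of 0.1 and other classes, Il1b ran from -3.32 to -2.56 and Il18 from 2.69 to 3.21. Every cell was also thinned to 347003 mouse fragments in 20 draws. Thinned values were scaled back up before the cut at FPKM of 1, so counts could rise as well as fall. Il18 was then detected in 11 to 12 of 12 AM-like and 12 to 13 of 49 monocyte-like cells, against 12 and 13 unthinned. Il1b was detected in 5 to 7 of 12 AM-like and 45 to 47 of 49 monocyte-like cells, against 6 and 45 unthinned.

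The median log2 fold of all 6151 genes was -0.38 with FPKM rescaled to one total, -0.19 with spike-in scaling and 0.14 as a difference of mean log2 values, against -0.30. Calls of other genes changed with the measure or with 1 cell. As a difference of mean log2(FPKM + 1), Il1rn at 2.32 and Tnf at 3.05 passed 4-fold and Il1r2 at -1.46 did not. Il1a was 0.74 without cell 6, Casp1 -3.55 without cell 17 and Tnf 2.23 without cell 44. Il1rn was -0.02 without cell 6 and Pycard 0.05 with spike-in scaling, a change of sign for 2 genes within 4-fold. Detection at FPKM of 10 took Nlrp3 to 56.2%, Casp1 to 30.1% and Tnf to 41.1% of all cells. Genes past 4-fold higher numbered 952 without the filter on low genes and 1255 at 2-fold, against 513, and genes lower 1827 and 2114, against 1152. No paired analysis was possible because the series holds 1 group of cells from 1 mouse and no test was made.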
